A study of Mus musculus with 6 samples.

Results

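The MCM helicase genes of the mouse were examined for binding of the transcription factor E2F1, as listed by chromatin immunoprecipitation followed by sequencing (ChIP-seq). The 10 members were taken by name out of 21887 protein-coding genes, and a member was given every peak that lay inside its GRCm38 span or within 1000 bp of it. Mcm2 to Mcm7 made up 6 of the members, and Mcm8, Mcm9, Mcm10 and Mcmdc2 the other 4. The cells were NIH/3T3, an established line of mouse embryonic fibroblasts, with a stably integrated construct for doxycycline-inducible E2F1 or with an empty vector (EV) under the same induction, 2 libraries each. Cells of either kind were held for 48 hours in 0.25% serum and then given doxycycline for 12 hours. The labels' protocol gives 500 ng/ml doxycycline, whereas the names of all 4 peak lists carry the number 200 beside the drug. The labels do not say whether the lines are clones or pools, or what separates the 2 libraries of a construct, and peak lists hold no expression with which to check the cell type.

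MCM2 to MCM7 form the ring-shaped hexamer that is loaded onto origins of replication in G1 and, once activated with CDC45 and the GINS complex, unwinds DNA ahead of the fork. MCM8 and MCM9 form a separate helicase that acts in homologous recombination, and MCMDC2 is a related protein needed for meiotic recombination. MCM10 shares the name but not the helicase fold and helps to activate the loaded hexamer. E2F1 is the founding member of a family of factors that switch on genes for DNA replication when a cell leaves quiescence, and genes of the hexamer are textbook targets of that family.

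Reference promoter stretches are shown for the members whose peaks stood highest or lowest, and for those that hold letters known to be bound by E2F factors. The letters searched were TTTCCCGC, TTTCGCGC, TTTGCCGC and TTTGGCGC on either strand, and matches are in capitals. The stretches of Mcm6, Mcm5, Mcm7, Mcm2 and Mcm9 are the 250 bases before an annotated start. The stretches of Mcm3 and Mcm8 are 30 bases just after it, around the only matches there. All are RefSeq sequences of GRCm38.p6, written 5′ to 3′ on the strand of the gene. Of the 10 members, 8 had at least 1 entry in the promoter table. Mcm4 and Mcmdc2 did not.
Mcm6, chr1:128359706-128359955, minus strand: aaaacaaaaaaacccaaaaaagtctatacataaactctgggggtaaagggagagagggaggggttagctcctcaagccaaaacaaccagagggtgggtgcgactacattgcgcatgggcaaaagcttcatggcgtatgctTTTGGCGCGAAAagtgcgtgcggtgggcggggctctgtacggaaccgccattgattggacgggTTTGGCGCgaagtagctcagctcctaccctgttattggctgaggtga
Mcm5, chr8:75109259-75109508, plus strand: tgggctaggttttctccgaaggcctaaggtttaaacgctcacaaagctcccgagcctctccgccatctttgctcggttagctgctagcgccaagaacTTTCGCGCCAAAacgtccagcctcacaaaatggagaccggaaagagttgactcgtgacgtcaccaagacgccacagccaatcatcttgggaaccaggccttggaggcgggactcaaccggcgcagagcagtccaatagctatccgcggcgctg
Mcm7, chr5:138171884-138172133, minus strand: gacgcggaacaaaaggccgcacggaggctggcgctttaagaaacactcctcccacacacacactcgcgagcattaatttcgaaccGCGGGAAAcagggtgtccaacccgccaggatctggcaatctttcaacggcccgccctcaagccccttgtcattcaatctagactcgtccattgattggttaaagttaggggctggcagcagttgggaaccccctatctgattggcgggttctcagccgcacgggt
Mcm3, chr1:20820266-20820295, minus strand: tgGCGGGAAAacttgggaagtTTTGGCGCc
Mcm8, chr2:132816161-132816190, plus strand: gcagaagcgcgtcatagacGCGCCAAAaaa
Mcm2, chr6:88898781-88899030, minus strand: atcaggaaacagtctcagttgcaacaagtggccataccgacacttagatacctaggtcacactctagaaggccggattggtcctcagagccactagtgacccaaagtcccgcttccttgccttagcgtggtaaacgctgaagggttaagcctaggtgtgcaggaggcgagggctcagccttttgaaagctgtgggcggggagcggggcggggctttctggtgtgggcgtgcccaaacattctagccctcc
Mcm9, chr10:53629958-53630207, minus strand: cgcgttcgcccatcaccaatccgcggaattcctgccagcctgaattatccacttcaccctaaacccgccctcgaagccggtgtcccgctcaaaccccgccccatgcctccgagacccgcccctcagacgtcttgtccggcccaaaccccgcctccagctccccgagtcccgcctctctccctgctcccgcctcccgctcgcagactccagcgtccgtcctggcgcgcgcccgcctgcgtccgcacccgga

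All 10 members had a peak in E2F1 replicate 1 and in E2F1 replicate 2, and none had a peak in either EV library. By the same rule 36.9% of protein-coding genes had a peak in E2F1 replicate 1 and 38.2% in E2F1 replicate 2, and 34.4% had a peak in both. In the EV libraries the shares were 0.0366% in replicate 1 and 0.407% in replicate 2, so 0 of 10 was close to what those short lists give for any gene. Each E2F1 list held 11 member peaks, 1 for each gene and a second inside Mcm9. All 22 touched the gene span itself. The window therefore added no member, and the nearest peaks beyond it lay at other genes, 2487 to 2504 bp from Mcm8 at Crls1, 2843 to 3014 bp from Mcm7 at Cops6 and 3532 to 3556 bp from Mcm2 at Tpra1. In EV replicate 2 the peak nearest to any member was 102 kb from Mcm7, and the next was 1006 kb from Mcm9. In EV replicate 1 only 5 members lay on a chromosome with any peak, and the nearest was 12777 kb away. With 2 libraries against 2, an exact two-sided permutation test cannot give a p below 0.333, so no test was made of the difference.

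The lists hold no peak below a −log10 p of 10, and a gene without a peak is not a gene without signal. The weakest member peaks stood well above that floor. They were those of Mcm5 in both lists, at a −log10 p of 21.7 in E2F1 replicate 1 and 30.6 in E2F1 replicate 2. Depth was read from the lowest background level of each list, which came to 1.85 and 1.86 reads for E2F1 replicates 1 and 2 and to 2.20 and 1.18 reads for EV replicates 1 and 2. This level comes from listed peaks alone, and EV replicate 1 had only 70, so its depth may be lower than the value read. EV replicate 2 was the shallowest library by this measure. With the pileups and backgrounds of the member peaks scaled to its level, all 10 members had a −log10 p above 10. The lowest value was again at Mcm5, 13.6 from E2F1 replicate 1 and 19.9 from E2F1 replicate 2. These values were calculated from the listed E2F1 peaks alone. Whether depth accounts for the lack of member peaks in the EV lists was not tested. How far the immunoprecipitation itself differed between the constructs cannot be told apart from the construct.

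Among the hexamer genes Mcm2 and Mcm4 had peaks of high fold in both lists, Mcm3, Mcm6 and Mcm7 ranked higher in E2F1 replicate 1 than in E2F1 replicate 2, and Mcm5 was lowest in both. Fold enrichment is the authors' value for the summit of a peak over its local background, and it was ranked within each list. E2F1 replicate 1 had 7836 peaks to rank, and E2F1 replicate 2 had 8027. Mcm6, whose protein sits beside MCM2 in the ring, had the highest fold of the hexamer in E2F1 replicate 1, 28.1 at rank 332, and a fold of 14.5 at rank 3005 in E2F1 replicate 2. Its peak spanned chr1:128358888-128359852 and chr1:128359151-128359841 in the respective lists. The peak was thus near the head of the list in replicate 1 and far from it in replicate 2.

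Mcm3 moved between the lists in the same direction, with a fold of 23.5 at rank 583 in E2F1 replicate 1 and 16.9 at rank 2446 in E2F1 replicate 2 (chr1:20819330-20820540 and chr1:20819796-20820455). Mcm2, the member that carries histones at the fork, was high in both lists, with folds of 21.9 at rank 700 and 35.3 at rank 549 (chr6:88897921-88898767 and chr6:88898194-88898870). Mcm4 was placed almost alike, with folds of 21.6 at rank 725 and 35.7 at rank 529 (chr16:15636981-15638092 and chr16:15636979-15637979). These were the hexamer genes whose rank changed least. Mcm7 had folds of 20.8 at rank 803 and 19.6 at rank 1881, under the widest of the members' strongest peaks (chr5:138170698-138172396 and chr5:138170793-138172373). Mcm5 was the lowest of the 6 in each list, with folds of 7.06 at rank 5333 and 11.5 at rank 3966 (chr8:75108829-75110236 and chr8:75109125-75109942). The Mcm5 peak was below the median fold of E2F1 replicate 1, 9.19, and just above that of E2F1 replicate 2, 11.3.

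The other members ranged from Mcm9, high in both lists, to genes near the middle of a list. Mcm9, a subunit of the recombination helicase, had folds of 26.6 at rank 404 in E2F1 replicate 1 and 42.0 at rank 350 in E2F1 replicate 2 (chr10:53629164-53630076 and chr10:53629249-53630214). Its partner in that helicase, Mcm8, was much lower, with folds of 14.0 at rank 1972 and 11.5 at rank 3968 (chr2:132815840-132816488 and chr2:132815805-132816560). The meiotic gene Mcmdc2 had folds of 11.9 at rank 2635 and 18.8 at rank 2022 (chr1:9942728-9944184 and chr1:9943454-9944226). That peak lay at the border of another transcript, described further on. Mcm10 had folds of 8.88 at rank 4104 and 15.0 at rank 2885, under the narrowest peaks of the family, 515 and 508 bp (chr2:5012332-5012846 and chr2:5012366-5012873).

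Placed on a common scale, the share of a list's peaks with a lower fold, the members followed the order Mcm9, Mcm2, Mcm4, Mcm7, Mcm3, Mcm6, Mcmdc2, Mcm8, Mcm10 and Mcm5. Mcm9 had 95.2% ± 0.536 (SD, n = 2), Mcm2 92.1% ± 1.48 (SD, n = 2) and Mcm4 92.0% ± 1.85 (SD, n = 2). Mcm2 and Mcm4 differed by less than their spread, and each kept the same side of Mcm9 in both lists. Below them the spread was wide. It was 83.2% ± 9.31 (SD, n = 2) at Mcm7, 81.0% ± 16.3 (SD, n = 2) at Mcm3 and 79.2% ± 23.5 (SD, n = 2) at Mcm6, so that these 3 could not be ordered. Mcmdc2 had 70.6% ± 5.93 (SD, n = 2), Mcm8 62.7% ± 17.2 (SD, n = 2), Mcm10 55.8% ± 11.7 (SD, n = 2) and Mcm5 41.2% ± 13.3 (SD, n = 2), and the values of each overlapped those of the next in the order. Of the 7537 protein-coding genes with a peak in both lists, 3.98% had a higher mean than Mcm9 and 32.2% had a lower mean than Mcm5.

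By their medians the hexamer genes stood above the other 4 members in E2F1 replicate 1 and hardly at all in E2F1 replicate 2. In replicate 1 the median of Mcm2 to Mcm7 was 90.9% (range 31.8 to 95.8) and that of the other members 70.6% (range 47.5 to 94.8). In replicate 2 the medians were 73.0% (range 50.6 to 93.3) and 69.4% (range 50.5 to 95.6). The ranges overlapped almost wholly in each list, with Mcm9 above every hexamer gene except Mcm6 in replicate 1, and Mcm5 below every other member except Mcm8 in replicate 2. For comparison, the strongest peaks of all protein-coding genes with a peak had medians of 54.0% in replicate 1 and 53.2% in replicate 2.

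**Figure D1:**
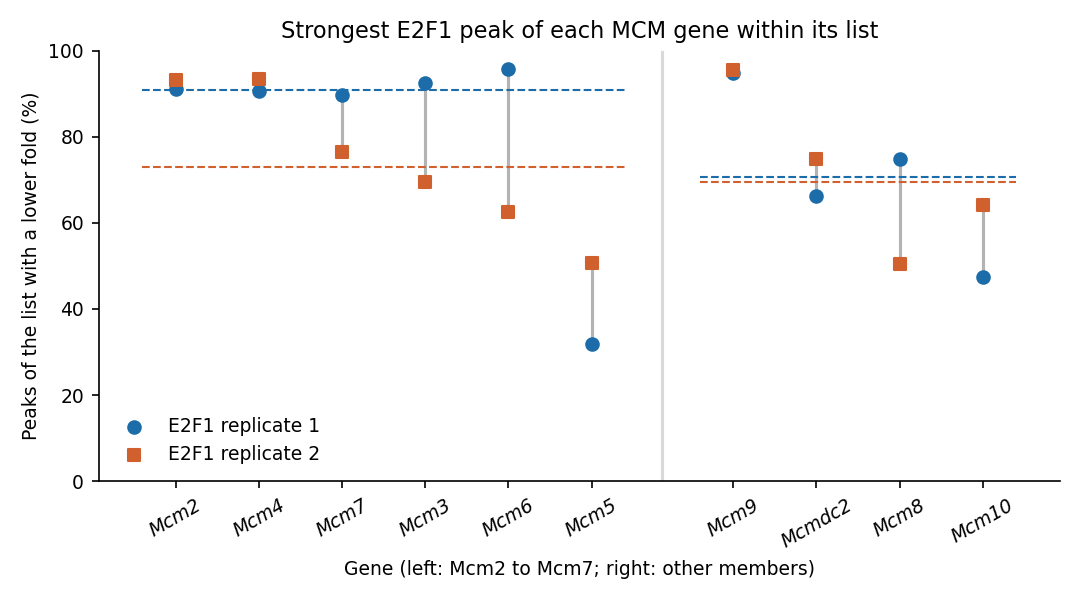
Share of the peaks of a list that have a lower fold enrichment than the strongest peak of each MCM gene (y axis, percent), for E2F1 replicate 1 (circles) and E2F1 replicate 2 (squares), with a grey line joining the 2 lists and dashed lines at the group medians of each list. Mcm9, Mcm2 and Mcm4 lie above 90% in both lists, Mcm6 falls from 95.8% to 62.6%, and Mcm5 is lowest in replicate 1 at 31.8%.

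At Mcm6 the 2 lists differed in the local background more than in the pileup. The pileup, the number of overlapping fragments at the summit, was 92 reads in E2F1 replicate 1 and 98 in E2F1 replicate 2. The local background was 2.31 reads in the former and 5.81 in the latter, or 1.25 and 3.13 times the genome-wide level of the list. At Mcm3 it was the pileup that differed, 113 reads against 75, over backgrounds of 3.86 and 3.48 reads. Percentile differences of this size were not rare. Among protein-coding genes with a peak in both lists the median difference was 13.1 percentage points, and 13.1% of genes differed by more than the 33.2 points of Mcm6 and 27.1% by more than the 23.1 points of Mcm3.

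By pileup Mcm9 was highest in E2F1 replicate 1 and Mcm2 in E2F1 replicate 2, and Mcm5 was lowest in both. Mcm9 had 128 and 119 reads in replicates 1 and 2, and Mcm2 had 84 and 142. In replicate 1 Mcm3, with 113 reads, and Mcm6, with 92, also stood above Mcm2. Mcm5 had 36 and 35 reads, fewest of the family in each list and below the list medians of 47 and 45. Mcm8 had 39 and 46 reads and Mcm10 had 49 in both, so the lower members differed little from the typical peak. Mcm4 had 74 and 101 reads, Mcm7 had 84 and 76, and Mcmdc2 had 66 and 76.

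**Figure D2:**
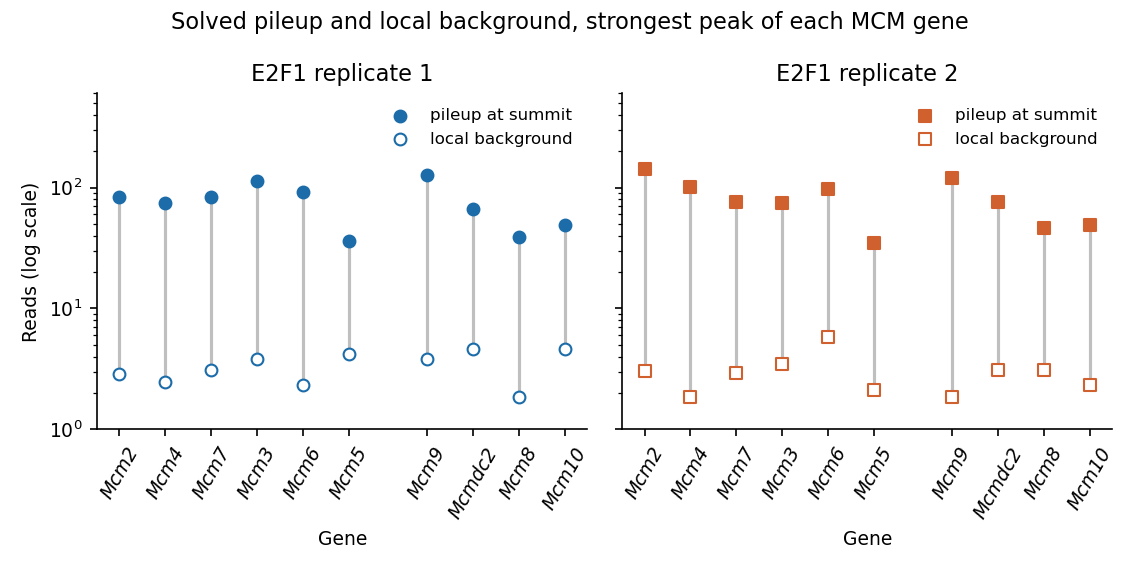
Reads at the summit (filled symbols) and in the local background (open symbols), on a log scale, for the strongest peak of each MCM gene in E2F1 replicate 1 (left) and E2F1 replicate 2 (right); a grey line joins the values of a gene. The background of Mcm6 is 2.31 reads on the left and 5.81 on the right at nearly equal pileups, and Mcm5 has the lowest pileup in each panel.

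Peaks of the hexamer genes were wider in E2F1 replicate 1 than in E2F1 replicate 2 at all 6 genes. Their median width was 1162 bp in replicate 1 (range 847 to 1699) and 755 bp in replicate 2 (range 660 to 1581), where the lists as a whole had medians of 938 and 814 bp. The other members had medians of 781 and 765 bp. Of the strongest peaks that of Mcm7 was widest in each list, at 1699 and 1581 bp, and that of Mcm10 narrowest. The second peak inside Mcm9 was 1578 bp wide in replicate 1 and 1623 bp in replicate 2.

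At most members with an annotated start the summits fell just inside the gene. Mcm4 and Mcmdc2, which had no start in the promoter table, had theirs outside the gene span in both lists, as described further on. Of the 8 members with an annotated start, 7 had their summit downstream of the nearest start in both lists, against 58.5% of the 6156 protein-coding genes that had a start in the table and a peak in both lists. The median position was 193 bp into the gene in E2F1 replicate 1 and 152 bp in E2F1 replicate 2, where those genes had 130 and 57 bp. At Mcm6 the summits were 156 and 167 bp in, at Mcm8 162 and 163 bp, at Mcm10 148 and 185 bp, and at Mcm3 209 and 164 bp. Of the 8 members, Mcm5 was the exception, with a summit at 197 bp from its start in replicate 1 and at -161 bp, upstream, in replicate 2. The latter lay beside the E2F letters shown above, 12 bp from the middle of TTTCGCGC, while the former was 346 bp from it.

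The 2 lists placed most summits alike. The gap between them was 1 bp at Mcm8, 4 bp at Mcm4, 11 bp at Mcm6, 37 bp at Mcm10, 45 bp at Mcm3, 64 bp at Mcmdc2, 76 bp at Mcm2 and 116 bp at Mcm9. It was 358 bp at Mcm5 and 469 bp at Mcm7. The family's median of 54.5 bp was close to the 58 bp of all protein-coding genes with a peak in both lists. Mcm7 has 2 annotated starts, and its summits were 193 and 45 bp from the nearest of them. The peak covered an annotated start in both lists at 7 of 8 members, against 76.4% of the 6156 genes. At Mcm2 the peak of replicate 1 ended just short of the start.

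**Figure D3:**
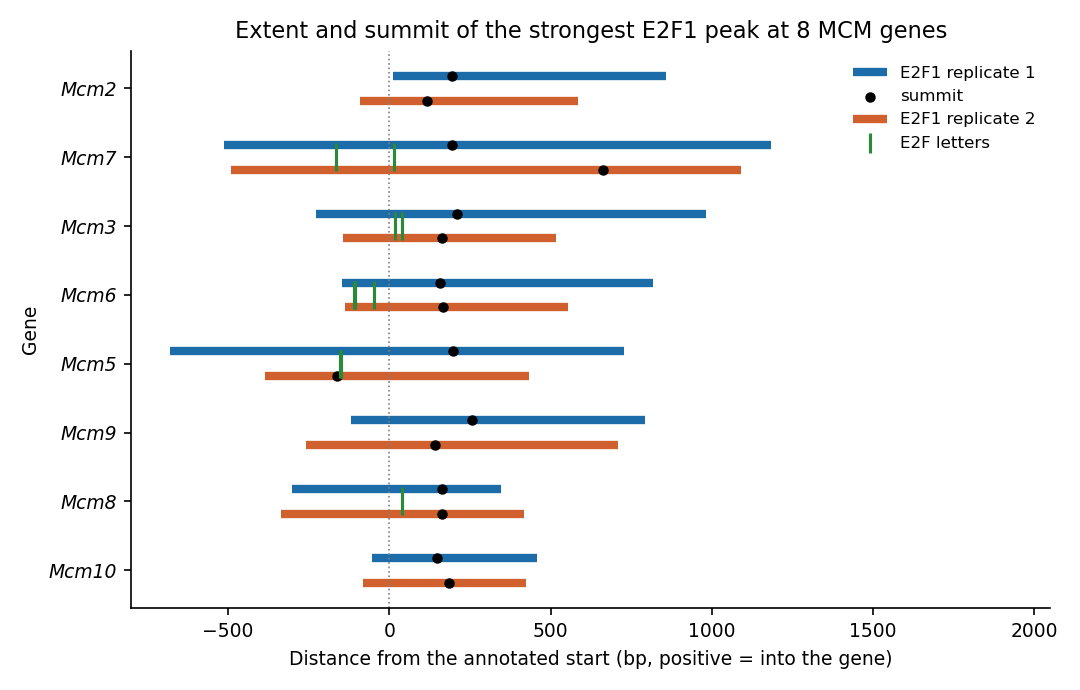
Extent of the strongest peak (bars) and its summit (dots) at the 8 MCM genes with an annotated start, in bp from the start, for E2F1 replicate 1 (upper bar) and E2F1 replicate 2 (lower bar); green ticks mark the first base of each match to the E2F letters, and the start furthest upstream is used for Mcm7. Most summits lie 117 to 257 bp into the gene, and that of Mcm5 in replicate 2 lies at -161 bp.

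Several member peaks cannot be given to the MCM gene alone. The Mcm4 peak covered the 43 bp between Mcm4 and Prkdc, the gene for the catalytic subunit of DNA-dependent protein kinase. Its summit was 178 and 174 bp inside Prkdc in E2F1 replicates 1 and 2, and 222 and 218 bp outside Mcm4. The Mcm8 peak covered the 82 bp between Mcm8 and Trmt6, a gene for a tRNA methyltransferase subunit, with its summit 166 and 167 bp inside Mcm8. Mcm7 overlaps the first bases of Ap4m1, a gene for an adaptor protein subunit, and its peak covered the starts of both. So 3 of 10 members (30%) shared their strongest peak with another protein-coding gene in both lists, and 29.9% of all protein-coding genes with a peak in both lists did. Near the Mcm3 peak the only other annotated gene within 1000 bp was the pseudogene Gm20587, which lies 1018 bp from Mcm3 itself.

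Mcmdc2 had no peak near its lower boundary, and its only peak lay at the upper one. The summit was 304 and 368 bp outside the Mcmdc2 span, which is chr1:9906157-9943606. It was inside the long non-coding gene Snhg6, a host of small nucleolar RNAs that overlaps the end of the span, 208 and 144 bp from the outer boundary of Snhg6. Which transcript the peak belongs to was not tested.

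The second peak inside Mcm9 lay over 32 kb from its end of the span, at the start of Asf1a, which encodes a histone chaperone and is nested in Mcm9. It spanned chr10:53596412-53597989 with a fold of 9.53 at rank 3708 in E2F1 replicate 1, and chr10:53596358-53597980 with a fold of 25.5 at rank 1160 in E2F1 replicate 2. The peak covered the Asf1a start in both lists. Mcm7 also hosts microRNAs 25, 93 and 106b, whose hairpins lay 4880 to 5389 bp from the Mcm7 peak with no peak of their own in either list.

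E2F letters were found at members of high and of low rank. Matches were present at 5 of the 8 members with a promoter entry: Mcm3, Mcm5, Mcm6, Mcm7 and Mcm8. Counted by promoter this was 5 of 9 (55.6%), since Mcm7 has 2. In the 250 bases before the start alone it was 3 of 9 (33.3%), against 1.86% of all promoters and 4.86% of those under a peak in both lists. A match was held by 2.26% of all 32851 promoters, and by 5.89% of the 6993 promoters under a peak in both E2F1 lists. Mcm6 held 3 matches, between positions -110 and -40 from the start, and Mcm5 held 2 that overlap on opposite strands. Mcm7 held 2 in the promoter of its upstream start, GCGGGAAA shown above and TTTCGCGC 16 bases into the gene. Mcm3 held GCGGGAAA and TTTGGCGC, both within 45 bases after the start, and Mcm8 held GCGCCAAA at positions 39 to 46.

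Mcm2, Mcm9 and Mcm10 held none of these letters in their 300 bases, from 250 before to 50 after the start. Mcm9 and Mcm2 headed the order by mean percentile, and Mcm5, last in that order, held 2 matches. At Mcm2, Mcm9 and Mcm10 the summits of the strongest peaks lay 117 to 257 bp after the start, beyond the bases searched. This did not set them apart from members with matches. Summits also lay beyond the searched bases at Mcm3, Mcm6 and Mcm8 in both lists, 156 to 209 bp after the start. At Mcm5 and Mcm7 they did so in E2F1 replicate 1 only. The Mcm10 stretch ends in TTTGGCG, so a match to TTTGGCGC across its edge was not looked for. The letters CCAAT, known to be bound by the factor NF-Y, were found on either strand in all 9 member promoters, against 37.4% of all promoters and 35.9% of those under a peak in both lists. GGGCGG, the letters of the Sp1 box, were in 8 of 9, against 35.7% and 77.2%. The letters TTTGAA or TTCGAA, of the cell cycle homology region, were in 2 of 9, at Mcm2 and Mcm7, against 19.2% and 11.1%. The E2F letters without their first T, which every match to the full letters also holds, were in 6 of 9 member promoters, against 9.57% of all and 23.6% of those under a peak. The member promoters had a median of 24 CpG dinucleotides (range 8 at Mcm3 to 35 at Mcm9), against 7 in all promoters and 27 in those under a peak. No letter match was tied to binding by any test.

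Genes whose products work with the hexamer were covered unevenly. All 5 genes for the CMG partners, CDC45 and the 4 GINS subunits, which join MCM2 to MCM7 in the active helicase, had a peak in both E2F1 lists, as did all 12 genes for helicase activation and fork factors. Of the 9 licensing genes, whose products load the hexamer or, for Gmnn, hold loading back, 6 did, beside 34.4% of all protein-coding genes. Of 13 other DNA helicases 9 did. None of these genes had a peak in an EV library, where only 0.0366% (replicate 1) and 0.407% (replicate 2) of all protein-coding genes had one. The strongest peaks of the activation and fork factors stood at median percentiles of 81.5% and 90.0% in E2F1 replicates 1 and 2, and those of the CMG partners at 47.8% and 55.2%, beside 54.0% and 53.2% for all protein-coding genes with a peak. The CMG partners spread widely around their medians.

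Cdt1, which brings the hexamer to the origin, had the highest mean of the licensing genes, with folds of 42.4 and 34.1, and Orc2 the lowest, with 9.57 and 8.35. Orc4 had no peak in either E2F1 list, Orc1 had none in replicate 2 and Orc3 none in replicate 1. Among the CMG partners Gins1 was highest, with folds of 19.3 and 23.5, and Cdc45 lowest, with 5.91 and 12.5. Cdc7, the kinase that phosphorylates the loaded hexamer, headed the activation factors with folds of 44.7 and 52.0, and Recql4, a helicase needed for initiation, was lowest with 5.82 and 6.11.

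The genes listed beside the recombination and meiotic members were mostly without peaks. Hrob, which recruits MCM8 and MCM9, had folds of 6.79 and 6.57. The genes Meiob, Spata22, Spo11, Mei4, Rec114, Iho1 and Hormad1, all of meiotic recombination, had no peak in either E2F1 list, so 1 of 8 genes of this list had a peak in both, below the 34.4% of all genes. Of the other helicases Recql was highest, with folds of 27.6 and 32.5, and Recql5 lowest, with 5.66 and 6.15. Pif1, Hfm1 and Fbh1 had no peak in either list, and Rtel1 had none in replicate 1.

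The genes of these lists placed most like Mcm2 to Mcm7 were Brip1, Gmnn and Gins1, by the distance of their percentiles in the 2 E2F1 lists from the hexamer medians of 90.9% and 73.0%. Brip1, a helicase of DNA repair, stood at 92.6% and 71.4%. Gmnn, the inhibitor of licensing, stood at 89.5% and 68.1%, and Gins1 at 87.5% and 82.8%. Likeness over 2 lists is a description only.

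**Figure D4:**
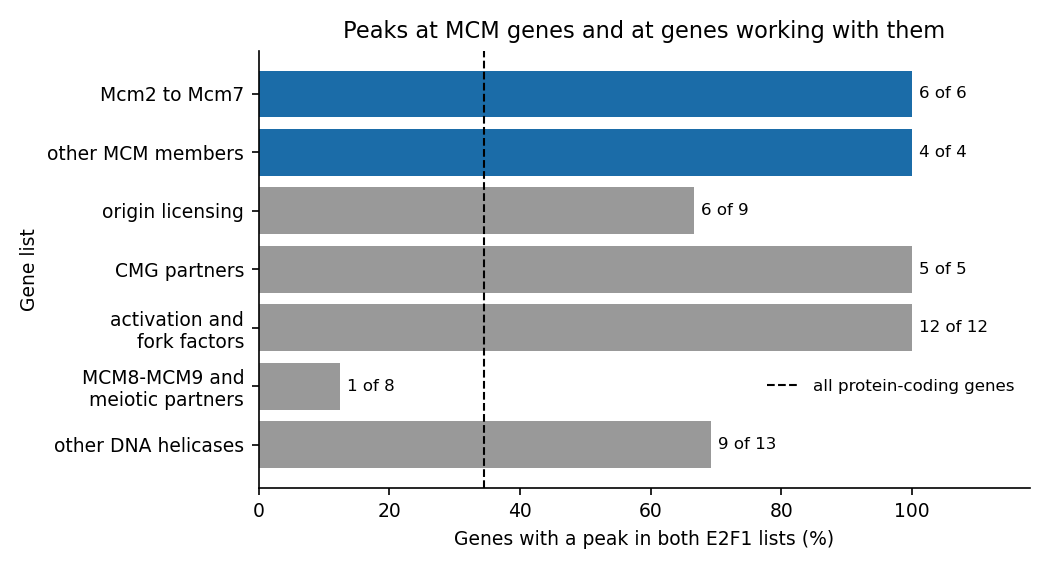
Percent of the genes of each list that had a peak in both E2F1 lists (bars starting at 0, with the number of genes), for the MCM members (blue) and for the further gene lists (grey); the dashed line marks the 34.4% of all protein-coding genes. Both MCM groups, the CMG partners and the activation and fork factors reach 100%. The list labelled MCM8-MCM9 and meiotic partners, mostly genes of meiotic recombination, reaches 12.5%.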

How the data were processed

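ChIP-seq peak lists were used for 4 libraries, 2 of E2F1 cells and 2 of EV cells, grouped by sample title. The 2 input DNA samples of EV cells had no file used here. The submitters' processing notes name FastQC, Trimmomatic, Bowtie2, MACS2 and ChIPseeker, and the build mm10, with no versions. The antibody and the control of each list are not given in the sources used here. Each list has 10 columns in narrowPeak layout. The authors' deposited values are a whole-number peak score, a fold enrichment (a ratio of pileup to local background), and the −log10 of a p-value and of a q-value.

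No counts or library totals were used. Pileup and local background were calculated back from the fold and −log10 p that the authors deposited, with a pseudocount of 1 and a Poisson tail, and accepted within 5% of the step between neighbouring pileups. In the E2F1 lists 99.99% and 99.98% of the peaks passed, and in the EV lists 95.7% and 99.7% did. The solver and the gene windows were tested on simulated data. Gene spans and promoters came from RefSeq tables of GRCm38.p6. The strongest peak of a gene is the peak of highest fold, and percentiles count peaks of lower fold. All 47 genes of the 5 further lists matched by symbol. Named genes were all members, neighbours of their peaks, the highest, lowest and peakless gene of each list, and the 3 genes nearest the hexamer medians. Tpra1, Cops6 and Crls1, at peaks beyond the window, and the genes with a peak in 1 E2F1 list were named after their values were seen. The members and lists were chosen with earlier results of these data known. No test was run over members. Python 3.11.15 was used with pandas 2.3.3, NumPy 2.4.6 and SciPy 1.17.1.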

Additional observations from a re-analysis of the deposited data

How the results depend on the processing

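Of 96 alternatives over 23 results, 85 stayed within the replicate spread, within the Wilson interval of a share or within 1.5 times a count, and 11 moved. For medians the replicate spread was the SD of the 2 E2F1 lists, so lists that differed more made staying within it easier. Leaving out an E2F1 list could not lower the count of members shared by both. Reversal of a result was not scored. The share of member promoters with E2F letters, 55.6%, was 33.3% in the bases before the start alone and 66.7% with the shorter letters, within the wide interval that 9 promoters give. All 10 members kept a peak in each E2F1 list, and 0 in each EV list, with windows of 0, 500, 2500 and 5000 bp and with the summit in place of the whole peak. With peaks at or above the median score of a list, 9 remained in each E2F1 list, without Mcm5. With summits within 200 bp, 8 were shared between the lists, without Mcm5 and Mcm7. The median percentile of the other members, 66.6% by the mean of both lists, was 69.4% to 70.6% when either E2F1 replicate was left out, 63.7% by score and 62.6% by pileup. That of Mcm2 to Mcm7, 82.1%, was 73.0% to 90.9%, 83.5% and 81.7% in the same settings. Percentiles by score and pileup, the scaling to EV depth and the windows for the further gene lists were chosen after the data were examined. No paired analysis was possible because the results are peak counts and values within single lists, which come from no test. The filter at a −log10 p of 10 and the lack of read totals limit what absence in an EV list can show.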
